A study of Mus musculus with 12 samples.

Results

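The genes described are 10 enzymes that set or remove histone acetylation: the acetyltransferase genes Ep300, Crebbp, Kat2a, Kat2b, Kat6a and Kat6b, and the class IIa deacetylase genes Hdac4, Hdac5, Hdac7 and Hdac9. They were chosen by name because histone acetylation is among the marks of the study, with earlier results of these data known. Each matched 1 of the 21779 protein-coding genes used. For each gene, all regions of the deposited FLAG-Zscan4 list whose midpoint lay in the gene body or within 50 kb were collected, which gave 7 of the 4973 listed regions. The list comes from 1 immunoprecipitation with an anti-FLAG antibody in J1 cells, a mouse embryonic stem (ES) cell line, (strain given as 12910la) that overexpress FLAG-tagged Zscan4c from a pCMV plasmid. The cells were transfected with 1000 ng of plasmid, kept in 500 ug/ml G418 for 10 days from 24 h on, and taken on as picked clones. The input library of the same genotype is its only labelled partner, and the other samples of the 12, histone mark libraries and inputs of overexpressing and wild-type cells, were not analysed here. The cells carry the transgene beside their own Zscan4 genes, and how many clones entered the library is not stated. A list of regions gives no expression values, so the cell identity was not checked against markers, and whether any of the 10 enzymes changed in level or in binding relative to wild type was not measured.

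Zscan4c belongs to the Zscan4 family of zinc finger proteins, which are made in the 2-cell embryo and in a transient fraction of ES cells. Histone acetylation loosens chromatin and is laid down by acetyltransferases and taken off by deacetylases. Ep300 and Crebbp encode the paralogous coactivators p300 and CBP, known as the writers of H3K27 acetylation at enhancers and promoters. Kat2a and Kat2b encode Gcn5 and Pcaf, the catalytic subunits of the SAGA and ATAC coactivator complexes, which act on the H3 tail. Kat6a and Kat6b encode Moz and Morf, acetyltransferases of the MYST family that work in complexes with Brpf scaffold proteins. The class IIa deacetylases have little catalytic activity of their own on acetylated histones. They bind MEF2 transcription factors and corepressors, and they shuttle between nucleus and cytoplasm when kinases phosphorylate them.

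FLAG-Zscan4 regions were listed at 4 of the 10 genes, Kat2b, Kat6b, Hdac4 and Hdac9, so 2 of 6 acetyltransferase genes and 2 of 4 class IIa deacetylase genes had one. Each of the 4 held at least 1 region in its body. None was listed within 50 kb of Ep300, Crebbp, Kat2a, Kat6a, Hdac5 or Hdac7. Kat2b, Kat6b and Hdac4 had 2 regions each and Hdac9 had 1. Over all protein-coding genes, the share with a region in this window was 26.3%, and 6.58% had at least 2. Of the 10 members, 9 are longer than the median protein-coding gene, Kat2a being the exception, and among the 2000 protein-coding genes nearest to any of them in span the share with a region was 38.4%. The shares of like-span genes, added over the 10 members, came to 3.84 genes, beside the 4 listed. In this window, the count over the members was therefore close to that of genes of the same length.

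**Figure D1:**
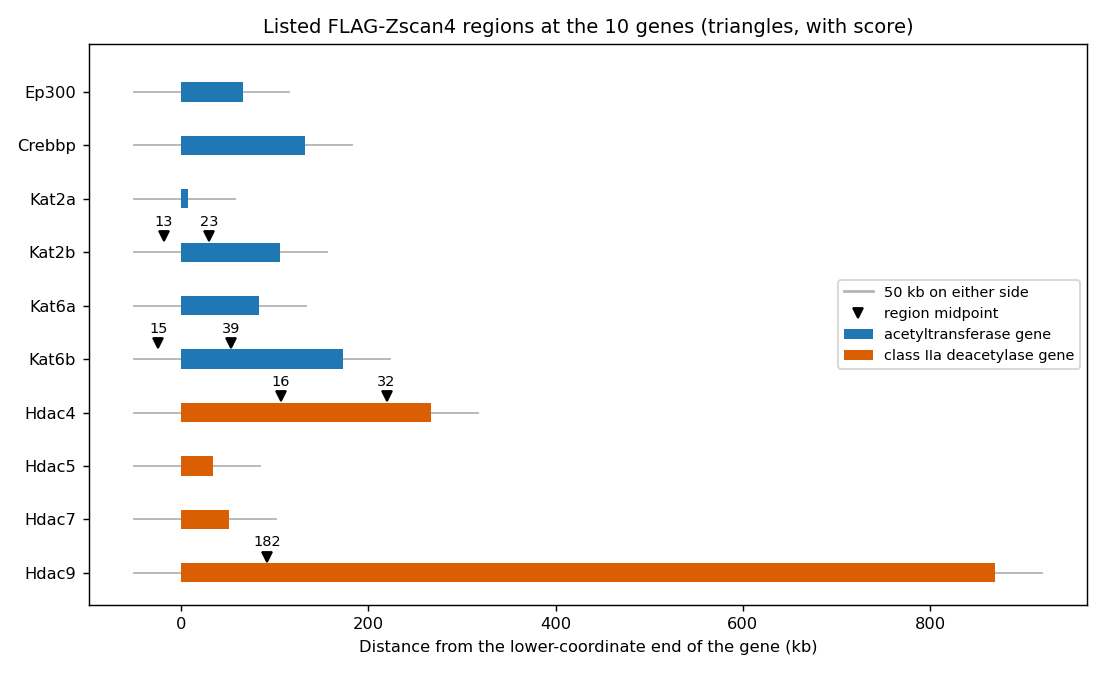
Each row is 1 gene drawn from its lower-coordinate end (x axis, distance in kb), with the gene body as a bar, 50 kb on either side as a line and each listed FLAG-Zscan4 region as a triangle with the authors' score above it. The 7 regions sit at Kat2b, Kat6b, Hdac4 and Hdac9, 5 of them inside a body, and the highest score, 182, is at Hdac9.

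Sequence was available for windows at annotated start sites, from 250 bases before to 50 after the start, from RefSeq on build GRCm38.p6, for 9 of the 10 genes and 15 starts. Kat6a had no entry. No listed region overlapped any of the 15 windows, and 0.0894% of the 21263 start windows of protein-coding genes overlapped one. The windows below are printed in the direction of transcription. The first is the Kat2b start that, of the 15, had a listed region closest to it, at 13.1 kb (chr17:53583876-53584175, plus strand). The second is Crebbp (chr16:4213355-4213654, minus strand), which had the most CpG dinucleotides of the 15, and the third is the outer start of Hdac9 (chr12:34917046-34917345, minus strand), which had none. Capitals mark CpG in these 3. The fourth is a start of Hdac7 (chr15:97831718-97832017, minus strand), in which capitals mark the reverse complement of TGCACAC.
Kat2b: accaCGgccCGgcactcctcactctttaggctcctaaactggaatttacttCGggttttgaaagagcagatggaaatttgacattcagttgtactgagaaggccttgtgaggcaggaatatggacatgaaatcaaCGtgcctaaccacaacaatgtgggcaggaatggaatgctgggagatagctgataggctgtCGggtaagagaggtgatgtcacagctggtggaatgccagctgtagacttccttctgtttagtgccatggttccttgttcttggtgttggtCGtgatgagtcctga
Crebbp: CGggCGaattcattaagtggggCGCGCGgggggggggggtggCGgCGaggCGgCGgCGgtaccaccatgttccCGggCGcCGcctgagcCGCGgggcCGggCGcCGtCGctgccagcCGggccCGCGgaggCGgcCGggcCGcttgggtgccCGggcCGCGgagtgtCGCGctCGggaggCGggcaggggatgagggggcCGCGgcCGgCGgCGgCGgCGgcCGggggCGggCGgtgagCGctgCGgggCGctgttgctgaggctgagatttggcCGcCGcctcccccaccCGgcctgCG
Hdac9: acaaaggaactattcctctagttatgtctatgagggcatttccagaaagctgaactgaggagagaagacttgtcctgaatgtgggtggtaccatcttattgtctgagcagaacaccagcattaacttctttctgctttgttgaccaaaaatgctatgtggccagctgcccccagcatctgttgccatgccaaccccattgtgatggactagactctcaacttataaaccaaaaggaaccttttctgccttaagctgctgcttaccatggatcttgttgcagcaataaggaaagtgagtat
Hdac7: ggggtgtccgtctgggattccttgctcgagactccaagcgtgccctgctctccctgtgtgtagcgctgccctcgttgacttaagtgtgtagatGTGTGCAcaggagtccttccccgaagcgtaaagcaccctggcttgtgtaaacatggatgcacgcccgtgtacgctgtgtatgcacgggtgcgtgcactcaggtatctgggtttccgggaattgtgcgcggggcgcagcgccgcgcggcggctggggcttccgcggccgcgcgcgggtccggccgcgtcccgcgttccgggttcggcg
The windows differed widely in CpG content. The Crebbp window held 49 CpG, as many as or more than 98.9% of protein-coding start windows, and had a G+C content of 82.0%. The Kat2b window held 6 CpG and 48.3% G+C, and the Hdac9 window 0 CpG and 44% G+C. Over the 15 member windows the median was 19 CpG, against 13 over all protein-coding start windows. These 15 are not separate genes: 4 belong to Hdac7, and the 2 of Kat6b cover nearly the same stretch. Zscan4 is known to bind CA/TG repeats, so 2 runs of that type, TGCACAC and CACACACA, were searched on both strands. They share the letters CACAC and can overlap. TGCACAC was found in 1 of the 15 member windows, that of Hdac7, and in 3.89% of all protein-coding start windows. CACACACA was found in 0 of the 15 and in 3.56% of all. The region nearest to the Hdac7 start with the run lay 116 kb away, with a score of 16. The sequence under the listed regions themselves was not analysed here.

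Among the acetyltransferases, the Gcn5-type gene Kat2b (chromosome 17, 53566774 to 53672721, plus strand, span 106 kb) had 2 regions 48.6 kb apart. The first (53548504 to 53548779, 276 bp wide, score 13) lay 18.1 kb before the gene. It also fell within 50 kb of Rab5a and of Pp2d1, and Pp2d1 was nearer to it, at 9.19 kb. The second (53597071 to 53597411, 341 bp, score 23) lay inside Kat2b at 28.8% of its span from the 5′ end, 13.1 kb from the second of 2 annotated starts. No other protein-coding gene had that region within 50 kb. Both scores were low within the list: 4538 regions scored above 13 and 3267 above 23. The next region stood outside the limit, 64.0 kb from the gene (53736220 to 53737137, 918 bp, score 35).

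At the rate of its chromosome, the Kat2b window would hold 0.377 regions. The 2 listed were 5.31 times that, with a 95% exact Poisson interval of 0.643 to 19.2 times, which includes 1. The two-sided exact binomial test gave p = 0.0552 for Kat2b and an adjusted p of 1 over all protein-coding genes. Of the 200 genes of like span, 13 (6.5%) held at least as many regions, the smallest such share among the 10 members. Counted within 100 kb, which takes in that region, Kat2b had 3 regions against 0.56 expected (exact binomial test, p = 0.0191, adjusted p = 0.593). At the rate within 5 Mb of the gene, 0.306 regions were expected beside the 2 listed (exact binomial test, p = 0.0366, adjusted p = 1). In the body alone and within 10 kb, Kat2b had 1 region (exact binomial test, p = 0.176 and 0.206). At the rate of all autosomes the exact binomial test gave p = 0.0637 for the 2 listed. Among the 2510 regions of highest score Kat2b had none.

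Kat2a (chromosome 11, 100704746 to 100712485, minus strand), which encodes the paralogous enzyme Gcn5, is the shortest of the 10 at 7.74 kb and had no listed region. The nearest lay 121 kb away (100833196 to 100833583, score 26). A window of this length would hold 0.215 regions at the rate of its chromosome, and 50 of the 200 genes of like span had one. An absence there carries little information, and it does not set Kat2a apart from Kat2b: the 95% Poisson interval of a count of 0 reaches 3.69 regions, or 17.2 times the number expected.

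Kat6b, the Morf gene (chromosome 14, 21499216 to 21672478, plus strand, span 173 kb), had 2 regions 78.1 kb apart. One (21474929 to 21475227, 299 bp, score 15) lay 24.1 kb before the gene, inside the long non-coding RNA gene Gm30363 and within 50 kb of Adk, the adenosine kinase gene, at 26.5 kb. The other (21553042 to 21553282, 241 bp, score 39) lay in the body at 31.1% of the span from the 5′ end and 53.4 kb from the nearest annotated start. It was the narrowest of the 7, and the only one at an acetyltransferase gene above the list's median score of 33. Against 0.57 regions expected, the 2 listed were 3.51 times as many (95% exact Poisson interval 0.425 to 12.7; exact binomial test, p = 0.112, adjusted p = 1). Of 200 genes of like span, 29 (14.5%) had at least 2.

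The paralogue Kat6a, the Moz gene (chromosome 8, 22859442 to 22943259, span 83.8 kb), had no listed region, and the nearest lay 213 kb away (22646047 to 22646370, score 27). Its neighbourhood was the densest of the 10: 136 regions lay in the gene or within 5 Mb of it, or 13.5 per Mb, against 3.65 per Mb on chromosome 8 as a whole. Around the other 9 genes the local rate was 1.48 to 3.51 per Mb. The reason for the density around Kat6a was not tested. At the rate of its chromosome the Kat6a window would hold 0.671 regions, and 40.0% of genes of like span had one. The exact binomial test did not call the 0 listed (p = 1). At the rate within 5 Mb of the gene 2.48 would be expected, and the exact binomial test gave an unadjusted p of 0.186. The rates of the chromosome and of the 5 Mb stretch both include these 136 regions. At the rate of all autosomes 0.364 regions would be expected. At the rate of the chromosome, the 95% Poisson interval of the ratio reached 5.49.

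Ep300 and Crebbp, the p300 and CBP genes, had no listed region either. Ep300 (chromosome 15, 81586209 to 81652077, plus strand, span 65.9 kb) had the most distant nearest region of the 10, at 602 kb (80984038 to 80984406, 369 bp, score 12). Crebbp (chromosome 16, 4081334 to 4213957, minus strand, span 133 kb) missed the limit narrowly, since a region lay 57.6 kb from its 3′ end (4023556 to 4023918, 363 bp, score 17). That region lay 190 kb from the Crebbp start. The numbers expected were 0.263 for Ep300 and 0.418 for Crebbp, and of genes of like span 40.5% and 37.5% had a region. At these expected numbers a gene most often has none, so the 0 listed at Ep300 and at Crebbp does not show that FLAG-Zscan4 avoids them.

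Among the class IIa deacetylases, Hdac4 (chromosome 1, 91928779 to 92195702, minus strand, span 267 kb) was the only member with 2 regions in its body. The one nearer to the 5′ end (92148163 to 92148469, 307 bp, score 32) lay at 17.8% of the span, 32.0 kb from the annotated start. The other (92035398 to 92035744, 347 bp, score 16) lay at 60.0% of the span, 113 kb from the first. No other protein-coding gene had either region within 50 kb. The nearest were Ndufa10 at 291 kb and Twist2 at 188 kb. Hdac4 would hold 0.934 regions at the rate of its chromosome, and the 2 listed were 2.14 times that (95% exact Poisson interval 0.259 to 7.74; exact binomial test, p = 0.24, adjusted p = 1). Of 200 genes of like span, 40 had at least 2.

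Hdac9 (chromosome 12, 34047580 to 34917095, minus strand, span 870 kb) held the single strong region of the 7 (34139459 to 34140552, score 182). At 1094 bp it was the only one wider than 1000 bp, and 141 of the 4973 listed regions were wider still. Its score was exceeded by 223 regions, and 95.5% of the list scored as high or lower. It lay toward the 3′ end, at 89.4% of the span from the 5′ end and 389 kb from the nearer of 2 annotated starts. The nearest other protein-coding gene was Twist1, a transcription factor gene, at 180 kb from the region, and the next listed region was 730 kb away. At the rate of its chromosome 1.66 regions were expected and 1 was listed, a ratio of 0.603 (95% exact Poisson interval 0.0153 to 3.36; exact binomial test, p = 1). Of 200 genes of like span, 110 (55.0%) had at least 1. These 200 covered a wide range of spans, 503 to 1485 kb.

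Hdac5 (chromosome 11, 102195747 to 102230172, minus strand, span 34.4 kb) and Hdac7 (chromosome 15, 97792661 to 97844502, minus strand, span 51.8 kb) had no listed region. The nearest lay 383 kb from Hdac5 (score 19) and 103 kb from Hdac7 (score 16). They are the shorter pair of the class, with 0.268 and 0.241 regions expected. Of genes of like span, 33.0% had a region for Hdac5 and 27.5% for Hdac7.

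**Figure D2:**
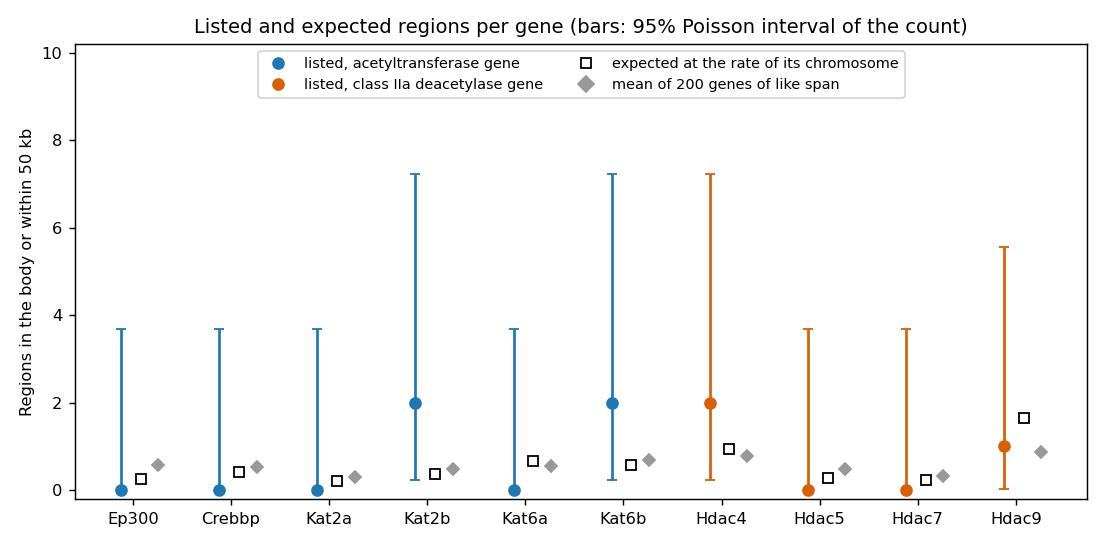
For each gene (x axis) the filled circle gives the number of listed regions in the body or within 50 kb (y axis), with its 95% exact Poisson interval, which covers counting error only. Open squares give the number expected at the rate of the gene's chromosome and grey diamonds the mean of the 200 genes nearest in span. The expected number lies inside the interval for all 10 genes.

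The members with a region were mostly the longer ones. The 4 genes with one spanned 106 to 870 kb, and the 6 without spanned 7.74 to 133 kb. Crebbp was the one gene without a region that is longer than a gene with one, Kat2b. A longer gene has a longer window, which by itself raises the share with a region. Over all autosomal protein-coding genes that share was 19.1% for spans up to 10 kb and 34.1% from 50 to 75 kb. It was 40.8% from 100 to 150 kb and 55.6% above 500 kb. The number listed over the 10 windows was 7, against 5.61 expected at the rates of their chromosomes. Per length, the acetyltransferase windows held 4 regions over 1.17 Mb, or 3.42 per Mb (95% exact Poisson interval 0.932 to 8.76). The class IIa windows held 3 over 1.62 Mb, or 1.85 per Mb (0.381 to 5.4), and all autosomes 1.98 per Mb. The intervals of the 2 enzyme groups overlap, and both contain the rate of the autosomes.

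**Figure D3:**
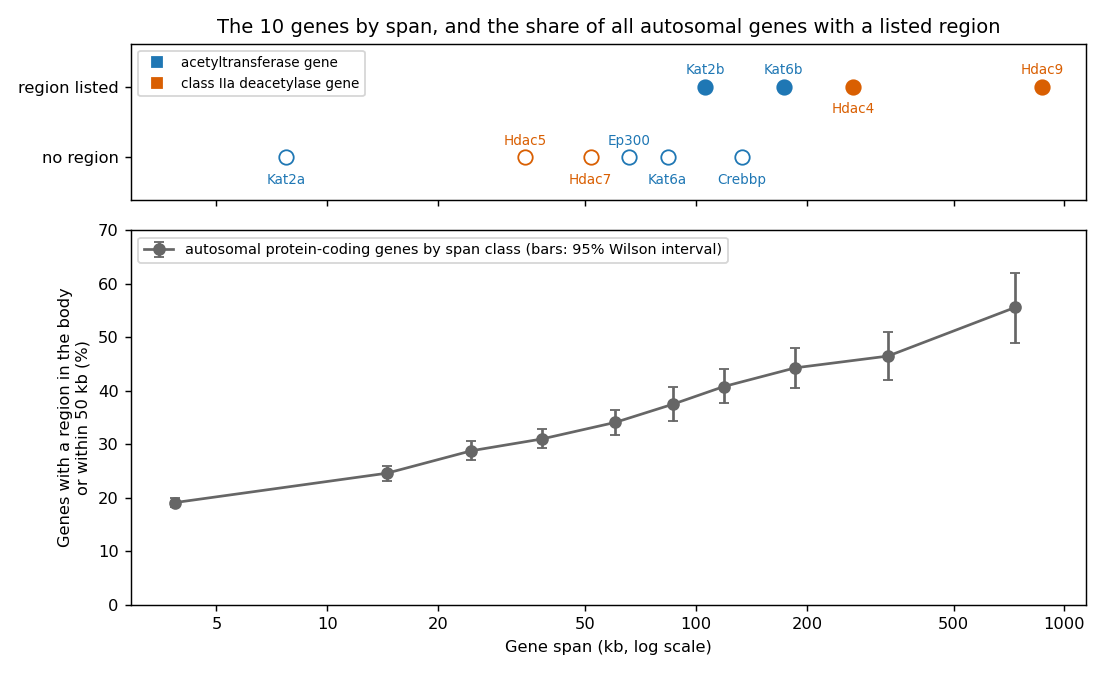
The upper panel places the 10 genes by span (x axis, kb, log scale) in a row for those with a listed region and a row for those without. The lower panel gives the share of autosomal protein-coding genes with a region in the body or within 50 kb for 10 span classes, with 95% Wilson intervals, and it is higher in each longer class, at 19.1% in the shortest and 55.6% in the longest.

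No member passed the exact binomial test after adjustment over the 21779 protein-coding genes, and none had an unadjusted p under 0.05, against 4.81% of these genes. Kat2b had one under 0.05 within 100 kb and at the rate within 5 Mb, as given above. At the 0.215 to 0.671 regions expected for the 6 members without a region, a count of 0 could not reach 0.05. Over all of these genes 0.248% (54 genes) were called with more regions than expected and 0 with fewer. The test has little power to call fewer at such small expected numbers. For Kat6a, 0 listed against 2.48 expected at the rate within 5 Mb gave p = 0.186 (exact binomial test). The called genes held 3 to 19 regions, more than the 2 that any member had. The test takes regions as independent, which neighbouring regions are not.

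The place within the gene can be set against the same background. Of the 7 regions, 5 lay in a gene body, and bodies made up 64.2% of the length of the 10 windows. Counting bodies alone, 4 of 10 members had a region, against 7.69% of all protein-coding genes and 21.1% of the 2000 genes of like span. The like-span shares in bodies added up to 2.10 genes, and the number of regions expected in the 10 bodies was 3.54. All 7 regions lay more than 10 kb from both ends of the member and from each of its annotated starts, the closest being the Kat2b body region at 13.1 kb. Whether they fall in exons or introns was not analysed here.

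Score and width were modest at all but 1 of the 7 regions. The scores were 13 and 23 at Kat2b, 15 and 39 at Kat6b, 16 and 32 at Hdac4 and 182 at Hdac9. Their median was 23, against 29 over the 1044 regions at genes of like span and 33 over the whole list. Of the 7, 5 were below the list's median. The 2 regions outside a body had the lowest scores, 13 and 15. The median width was 307 bp, against 296 bp at genes of like span and 310 bp over the list, and 6 of the 7 were 241 to 347 bp wide. The scale of the authors' score is unknown, so it was read only as a rank among the listed regions.

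**Figure D4:**
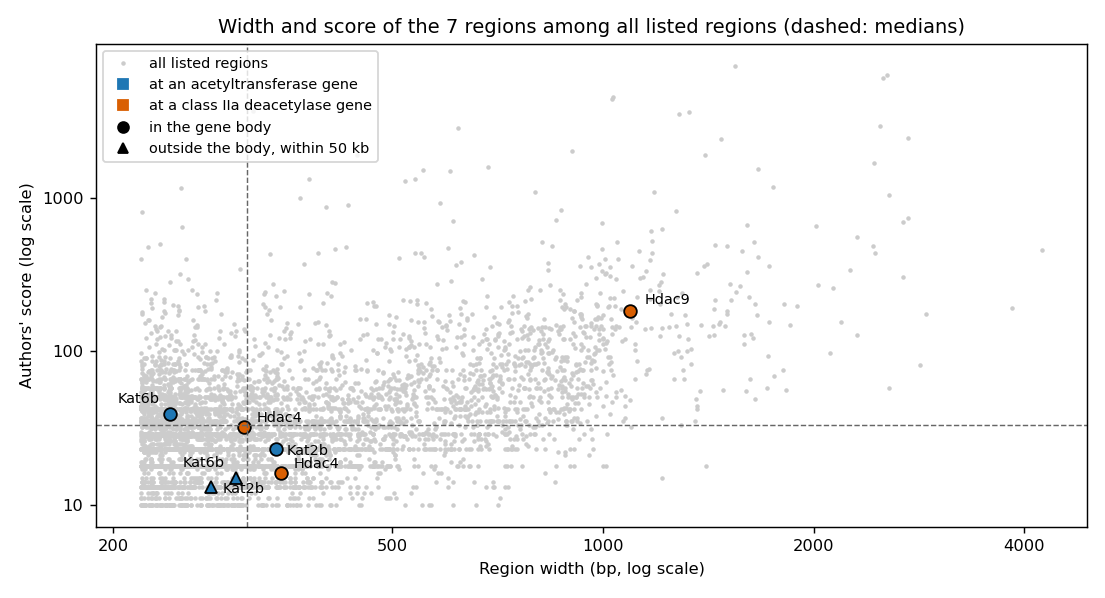
Each grey point is 1 of the 4973 listed regions, by width (x axis, bp, log scale) and the authors' score (y axis, log scale), with the list's medians of 310 bp and 33 as dashed lines. The 7 regions at the members are drawn large, circles in a gene body and triangles outside one. The Hdac9 region, 1094 bp wide with a score of 182, stands apart from the other 6.

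The genes most like Kat6b and Hdac4, the members with 2 regions and the highest scores, were sought among the 200 protein-coding genes nearest to each in span, by number of regions and then by highest score. For Kat6b these were Tbc1d4 (2 regions, highest score 42), Sulf1 (2, 35) and Chd6 (2, 33). For Hdac4 they were Tmem108 (2, 32), Arhgap32 (2, 35) and Arhgef3 (2, 35). Of the 200 genes around Kat6b 17 had 2 regions and 116 had none, and of the 200 around Hdac4 29 had 2 and 109 none.

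Genes that work with these enzymes were examined by function, in lists that together held 115 genes, 3 of them in 2 lists. Of the 115, 39 (33.9%) had a region in that window, against 26.3% of all protein-coding genes, and the shares of genes of like span added up to 37.2. The number of regions in the 115 windows, some of which overlap, was 68 against 36.1 expected at the rates of their chromosomes. An unadjusted p under 0.05 in the exact binomial test was found for 13 genes (11.3%), against 4.81% of all protein-coding genes. Among the 13 were Atxn7l1 and Ncoa2 with 6 regions each and Sik3 with 5. No share over genes of like span was taken for this measure. The lists were chosen with earlier results of these data known. Only the SAGA subunit gene Atxn7l1 passed the test over all genes.

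Of the 7 class I, IIb and IV genes, 1 had a region: Hdac1, the catalytic subunit of the Sin3 and NuRD corepressors, with 2 (highest score 42, 11.6 kb from the gene). The like-span shares of that list added up to 2.00, and its 2 regions stood beside 1.43 expected. None of the 7 sirtuin genes, the NAD-dependent deacetylases, had one, beside 1.85 from genes of like span.

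Among the other acetyltransferases 8 of 13 genes had a region, beside 4.15 from genes of like span, and none was called. The highest scores were at Kat14 (136, 4.09 kb from the gene), a subunit of the ATAC complex, at Ncoa2 (66) and at Ncoa3 (51, in the body), both nuclear receptor coactivators. Ncoa2 had 6 regions, 3 in its body, against 0.853 expected (exact binomial test, p = 0.000253, adjusted p = 0.086). Elp3, the catalytic subunit of Elongator, had 3 against 0.339 (exact binomial test, p = 0.00501, adjusted p = 0.496).

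Of the 31 subunits of the SAGA, ATAC and MOZ/MORF complexes, the partners of Kat2a, Kat2b, Kat6a and Kat6b, 12 had a region, beside 9.02 from genes of like span. The SAGA subunit gene Atxn7l1 (chromosome 12, 33146968 to 33376408) had 6 regions, 2 in its body and the highest at a score of 92, against 0.563 expected (exact binomial test, p = 2.58e-05, adjusted p = 0.0208). With regions within 1 kb of each other merged it had 4, and the exact binomial test no longer called it (adjusted p = 0.367), nor did it in the body alone (2 regions, adjusted p = 1) or within 10 kb (4 regions, adjusted p = 0.357). Among the 2510 and the 1252 regions of highest score it had 3 and 1, and the exact binomial test did not call it there either (adjusted p = 0.769 and 1). Within 100 kb and with any overlap of at least 1 bp, the exact binomial test still called it (adjusted p = 0.0337 and 0.0208). At the rates within 5 Mb and of all autosomes, the exact binomial test also called it (adjusted p = 0.0304 and 0.0386). Sgf29 and Taf5l followed with a highest score of 52 each.

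Bromodomain proteins read acetylated lysine, and 11 of their 27 genes had a region, beside 9.57 from genes of like span. The highest scores were at Cecr2 (474, 30.3 kb from the gene), Atad2b (70) and Baz2b (66, 1 of 3 regions in its body). None of the 27 was called. Of the 33 corepressor, MEF2, 14-3-3 and kinase genes that act with class IIa deacetylases, 8 had a region, beside 11.5 from genes of like span. Among them, Ncor1, a corepressor gene, had 1 with a score of 34, 38.6 kb from the gene. Sik3, a kinase that phosphorylates class IIa deacetylases, had 5 regions, 3 in its body and the highest at a score of 145, against 0.628 expected (exact binomial test, p = 0.00047, adjusted p = 0.144). None of this list was called. Elp3 is named in addition to the 3 highest scores of its list, after its values were seen.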

How the data were processed

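The series holds 12 samples in 12 groups of 1. One list of FLAG-Zscan4 regions from overexpressing J1 cells was used. Per the submitters' processing notes, cutadapt, Bowtie2, MACS2 and deepTools were run on build mm10; their versions, the peak threshold and the control library are not stated there. The authors deposited start, end and 1 whole-number score per region, of unstated scale; positions are printed counted from 1. Peaks came from 1 immunoprecipitation, with no pooling stated, and depth is unknown. Region names run from 1 to 5005, and 32 of these numbers are absent from the list as used. Only regions past the authors' threshold are listed, so a gene without one is not shown to be unbound.

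Genes came from RefSeq on GRCm38.p6, the same primary assembly as mm10; 49603 of 49997 were kept, leaving out those without a used chromosome and those on autosomes or X that start below 3 Mb. Regions were counted by midpoint. Each of the 21779 protein-coding genes was given a two-sided exact binomial test of its regions against its window's share of its chromosome (the stretch between the outermost genes or regions), with Benjamini-Hochberg adjustment and a threshold of 0.05. Genes of like span were the 200 autosomal protein-coding genes nearest in log span. They serve as description, without a test. Intervals are exact Poisson or Wilson at 95% and cover counting error only. Start sites and windows came from a RefSeq promoter table. The code was tested on simulated data (Python 3.11.15, numpy 2.4.6, pandas 2.3.3, scipy 1.17.1). Members, lists and tests were chosen with earlier results of these data known. All members are named; of each other list, up to 3 genes with a region within 50 kb and the highest scores (some list members are counted but not reported here by name), and for the pair of members with most regions, ties going to the higher score, the 3 most alike genes of like span.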

Additional observations from a re-analysis of the deposited data

How the results depend on the processing

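The same 4 members had a region in the body alone and within 10 kb. They also did with any overlap of at least 1 bp and after merging within 1 kb. Genes of like span gave 2.10 in the body alone and 2.55 within 10 kb, so the 4 stood above them there. This difference was not tested. All protein-coding genes had shares of 7.69% and 11.7% in these narrower windows. With any overlap and after merging, genes of like span gave 3.86 and 3.84. Within 100 kb Crebbp joined the 4, beside 4.98 from genes of like span and 40.2% of all protein-coding genes. With the 2510 regions of highest score, 2 members (Kat6b and Hdac9) and 2 regions were left, beside 2.16 members from genes of like span and 2.85 regions expected. With the 1252 highest, 1 member (Hdac9) and 1 region were left, beside 1.09 and 1.32. The shares of all protein-coding genes were 13.9% and 6.66%, so the background fell as well. The members expected from genes of like span were 3.67 to 3.97 with 100 or 400 neighbours or every gene class. No member passed the exact binomial test in any of 10 settings (adjusted p 0.593 to 1).

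The protein-coding genes called were 54 as reported, 11 in the body alone, 14 within 10 kb, 87 within 100 kb, 25 with the 2510 highest regions, 22 with the 1252 highest and 25 against the rate within 5 Mb. Of the 115 other acetylation genes, 13 had a region in the body alone, 21 within 10 kb and 59 within 100 kb, beside 39 as reported. With the 2510 highest regions 22 had one, and with the 1252 highest 8. In the same order, the shares of all protein-coding genes were 7.69%, 11.7%, 40.2%, 26.3%, 13.9% and 6.66%. Shares of genes of like span were not taken for the 115 outside the reported setting. Narrower windows and fewer regions lower such counts by construction. Without replicates, no sample could be left out. No paired analysis was possible because each group has 1 sample.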
